A study of Mus musculus with 9 samples.

Results

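Nuclear-encoded respiratory chain genes were examined in RNA of mouse substantia nigra, the midbrain region that holds most dopaminergic (DA) neurons. Members were the 86 protein-coding genes, of 55450 genes counted, whose GENCODE M21 symbol names a subunit of the chain. They comprise 37 genes of complex I (Nduf symbols), 4 of complex II (Sdh), 9 of complex III (Uqcr symbols and Cyc1), 18 of complex IV (Cox4 to Cox8) and 18 of complex V (Atp5). Ndufa4 was counted under complex I by its symbol, although its protein is known as a subunit of complex IV. The choice rests on symbols alone and used no measured value, although earlier results of these data were known when it was made.

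The respiratory chain sits in the inner mitochondrial membrane, where complexes I and II pass electrons from NADH and succinate through complexes III and IV to oxygen. Complexes I, III and IV pump protons, and complex V, the ATP synthase, uses the proton gradient to make ATP. Most subunits are encoded in the nucleus and a few in mitochondrial DNA. DA neurons of the substantia nigra are known for their high energy demand, and inhibitors of complex I are classical toxins of these cells.

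Nigral tissue was sequenced in 9 libraries, 3 in each of 3 groups, collected 5 weeks after lentiviral injection into both sides of the brain. The CTR group (label GFP, control) is described in the study as CX3CR1-CreERT2 mice given a Cre-inducible vector for destabilized GFP. The CX3 group (CX3-Cre) received a Cre-inducible Synuclein-expressing vector in mice whose tamoxifen-dependent Cre is driven from the Cx3cr1 gene, which in brain is active in microglia. In the DAT group (DAT-Cre) the same vector was switched on by Cre driven from the dopamine transporter gene, which marks DA neurons. The CTR and CX3 mice received tamoxifen for 4 days by the methods given for their line, and the DAT line needs none, so that DAT and CTR differ in Cre line and tamoxifen as well as in the vector. All mice were male, with an age of 8 weeks at injection in the study's results and of 9 weeks in its methods. The number of animals behind each library is not given, so the spread between libraries may be technical. Replicates 1 to 3 are the libraries lettered A to C in the labels.

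Sequencing depth was 21592817 to 39475428 gene counts per library, and 3 counts correspond to 0.0779 to 0.151 CPM (counts per 1000000 gene counts, with library sizes scaled by TMM normalization). Members took 1.2 ± 0.0178% of the counts in CTR, 1.32 ± 0.0594% in CX3 and 1.17 ± 0.132% in DAT (SD, n = 3). In 2 groups a library stood apart. DAT replicate 2, the shallowest library, lay above both other DAT libraries in 79 of 84 tested members, by a median of 0.37 on the log2 scale. Its squared differences from the other DAT libraries were 18.7 and 13.7 times those of random sampling, against 2.38 between the other two. CX3 replicate 1 lay above both other CX3 libraries in 74 of 84 members, by a median of 0.11, with ratios of 5.25 and 7.32 against 2.72. The 3 CTR pairs gave ratios of 1.49 to 1.89. The vector's transgene is not among the counted mouse genes, so the labels were not checked against it.

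To show what regulatory sequence these genes carry, the 250 bases before the start of 4 members are printed here from RefSeq on GRCm38.p6, 5′ to 3′ on the strand of the gene. They were chosen because Sdha and Sdhd belong to the same complex and differed in opposite directions, Cox6a1 was among the members with the largest difference in CX3, and Atp5l among those with the largest in DAT. Capitals mark matches to the motif of NRF1 (GCGCA and GCGC with any base between them) and to CCGGAAG, a motif of GABP and other ETS factors, on either strand. GENCODE places the start of Sdha and of Cox6a1 slightly further upstream than RefSeq. NRF1 and GABP are nuclear factors long known to bind promoters of respiratory chain genes.
Sdha, chr13:74350241-74350490, minus strand: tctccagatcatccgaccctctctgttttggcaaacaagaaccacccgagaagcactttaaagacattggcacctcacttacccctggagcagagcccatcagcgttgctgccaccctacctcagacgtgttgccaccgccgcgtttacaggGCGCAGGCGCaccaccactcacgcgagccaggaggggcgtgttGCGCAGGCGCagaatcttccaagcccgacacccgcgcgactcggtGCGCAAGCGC
Sdhd, chr9:50603850-50604099, minus strand: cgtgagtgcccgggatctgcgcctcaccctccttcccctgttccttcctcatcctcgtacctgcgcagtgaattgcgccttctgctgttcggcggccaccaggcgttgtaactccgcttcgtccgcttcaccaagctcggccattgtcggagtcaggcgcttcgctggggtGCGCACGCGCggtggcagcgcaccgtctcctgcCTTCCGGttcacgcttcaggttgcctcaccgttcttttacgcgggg
Cox6a1, chr5:115348959-115349208, minus strand: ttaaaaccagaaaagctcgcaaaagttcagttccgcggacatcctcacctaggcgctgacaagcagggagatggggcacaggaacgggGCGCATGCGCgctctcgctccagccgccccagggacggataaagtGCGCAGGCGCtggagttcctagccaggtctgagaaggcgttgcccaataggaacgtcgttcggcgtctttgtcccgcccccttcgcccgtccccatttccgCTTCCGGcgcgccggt
Atp5l, chr9:44920743-44920992, minus strand: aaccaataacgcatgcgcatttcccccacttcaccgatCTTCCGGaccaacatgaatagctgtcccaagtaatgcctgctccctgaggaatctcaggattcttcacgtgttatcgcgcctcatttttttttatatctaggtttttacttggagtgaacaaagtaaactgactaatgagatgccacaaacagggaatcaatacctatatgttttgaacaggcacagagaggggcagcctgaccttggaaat

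The Sdha sequence holds 3 NRF1 matches, which begin 98, 55 and 10 bases before the start. Sdhd has 1 NRF1 match and 1 ETS match, Cox6a1 has 2 and 1, and Atp5l has an ETS match 212 bases before its start and no NRF1 match in these letters. Among the 69 members with a RefSeq window of 250 bases before to 50 after the start, 16 (23.2%) held the NRF1 motif, against 4.82% of 27025 genes. The ETS motif was in 15 members (21.7%), against 9.14% of all genes, and AAGATGGC, the motif of YY1, in 9 members (13%), against 2.87%. The motif windows of complex IV held NRF1 in 1 of 13 genes and those of complex V in 5 of 15. For members the window nearest the GENCODE start was used, and for all genes the most upstream window, with no filter on expression. The shares of members and of all genes thus rest on windows chosen in different ways. A match describes the letters only.

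Levels of the members were compared with each other per length, as TPM (transcripts per 1000000 transcripts) over the exonic length of the gene. Cox8a at 1381 ± 20.6 TPM and Cox6a1 at 1353 ± 39.0 (SD, n = 3), both small subunits of complex IV, stood highest in CTR and lay within 1 SD of each other. The next genes in order were Cox6b1 at 942 ± 32.7, Atp5b, the catalytic β subunit of ATP synthase, at 907 ± 19.6, Atp5a1 at 867 ± 18.4 and Cox4i1 at 616 ± 8.85 TPM. Cox6b1 and Atp5b lay close to each other relative to their spread, and Cox4i1 stood clearly below both. Summed over its members, complex I came to 7623 ± 104 TPM in CTR, complex IV to 6668 ± 121, complex V to 4797 ± 62.4, complex III to 2468 ± 47.3 and complex II to 967 ± 12.6. The sum of complex IV was 7741 ± 289 TPM in CX3, with all 3 libraries (7525 to 8069) above the 3 CTR libraries (6542 to 6784), and 6565 ± 1073 in DAT, where the libraries ran from 5873 to 7801. The choice of length bears on the order of genes. Over the median length of a gene's consensus coding (CCDS) transcripts, a choice made after seeing the data, Atp5b stood first at 1340 ± 28.9 TPM, and complex V at 7070 ± 89.0 lay above complex IV at 6944 ± 120.0.

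The plot of members by library shows how the complexes moved. In CX3 replicates 1 to 3, the median of the 78 members with a mean of at least 10 CPM in CTR lay 0.21, 0.09 and 0.08 above the CTR mean on the log2 scale. In DAT the same median was -0.18, 0.21 and -0.15, so that replicate 2 lay on the other side of the CTR mean from replicates 1 and 3. This pattern held in each of complexes I to V, with DAT medians of -0.21, 0.21 and -0.15 in complex I.

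**Figure D1:**
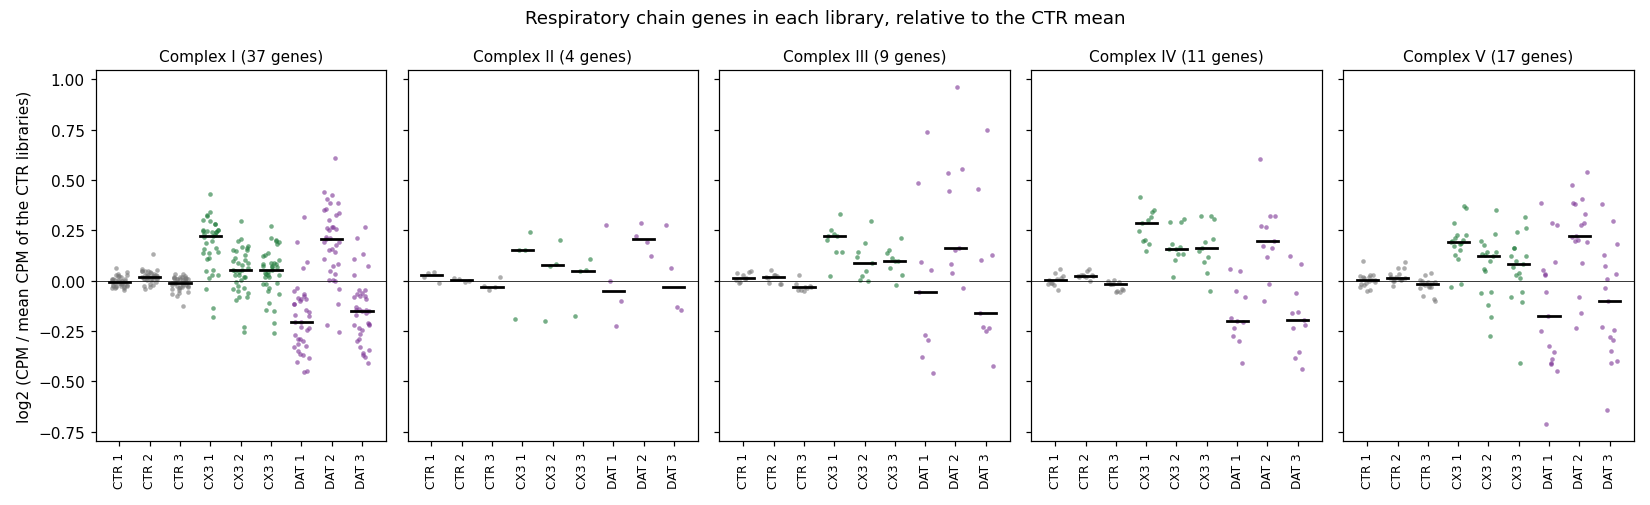
Level of the 78 respiratory chain genes with a mean of at least 10 CPM in CTR, as log2 of its CPM over the mean CPM of the CTR libraries, in 1 panel per complex. Points are genes, bars the median of the panel's genes. The CX3 medians lie above the CTR mean in all 5 complexes, and DAT replicate 2 lies above the other DAT libraries.

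The comparison of CX3 with CTR asks how the chain's transcripts differ when the vector is expressed in microglia. Of 84 members tested, 12 were higher in CX3 and 3 lower (edgeR's quasi-likelihood test, Benjamini-Hochberg adjusted p under 0.05), where 14.0% of all genes tested were higher and 16.5% lower. So 14.3% of members were higher, close to the background, and 3.57% lower. The differences were small and mostly positive, with 72 of 84 above 0 and a median of 0.13 on the log2 scale (1.09-fold), against a median of -0.003 over all 20892 genes. In 44 members all CX3 libraries lay above all CTR libraries, against 23.9% of all genes, and in 6 below, against 25.4%. Apart from the low-count gene Cox8b, the largest differences among the members that rose were in the complex IV genes Cox7b and Cox6a1, in Ndufa4 and in Atp5g1, and the genes that fell were Sdha, Ndufv1 and Ndufa10.

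These counts depend on which libraries share the estimate of spread. Without DAT replicate 2, which belongs to neither group, 47 members were higher in CX3 than CTR and 6 lower, against 19.4% and 20.2% of all genes. All 12 higher and all 3 lower members of the fit with 9 libraries were among them. A fit of the CX3 and CTR libraries alone called 45 higher and 5 lower, against 19.9% and 20.8%. Without CX3 replicate 1 the counts were 3 and 3, against 12.1% and 14.7%, and the members that stayed higher were Cox7b, Cox8b and Atp5g1. Leaving out any other single CTR or CX3 library gave 3 to 7 higher. Without both CX3 replicate 1 and DAT replicate 2, 38 were higher and 11 lower, against 20.6% and 22.1%. With library size in place of TMM scaling 23 were higher and 2 lower, against 18.9% and 13.2%.

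The comparison of DAT with CTR asks the same of the vector in DA neurons. Here 13 members were higher and 16 lower of 84, that is 15.5% and 19.0%, while 32.0% of all genes tested were higher and 27.9% lower. The median difference was -0.05 on the log2 scale, and 34 members lay above 0. The members that rose were mostly catalytic and core subunits (Uqcrc1, Cyc1, Atp5a1, Ndufv1, Atp5b, Sdha), and those that fell mostly small accessory ones (Atp5l, Ndufv3, Ndufa3, Uqcrb) and tissue isoforms of complex IV. With the trend over transcript length removed in each library, all 13 that rose were still called higher. Of the 16 that fell, only 4 were still called lower. In 16 members the DAT libraries lay above all CTR libraries, against 33.5% of all genes, and in 9 below, against 30.6%. Without DAT replicate 2, 10 were higher and 50 lower, with a median of -0.18, against 31.5% and 30.2% of all genes. Of the calls made with 9 libraries, 9 of 13 higher and 16 of 16 lower were kept. With library size in place of TMM scaling 7 were higher and 37 lower, against 23.4% and 38.5%.

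**Figure D2:**
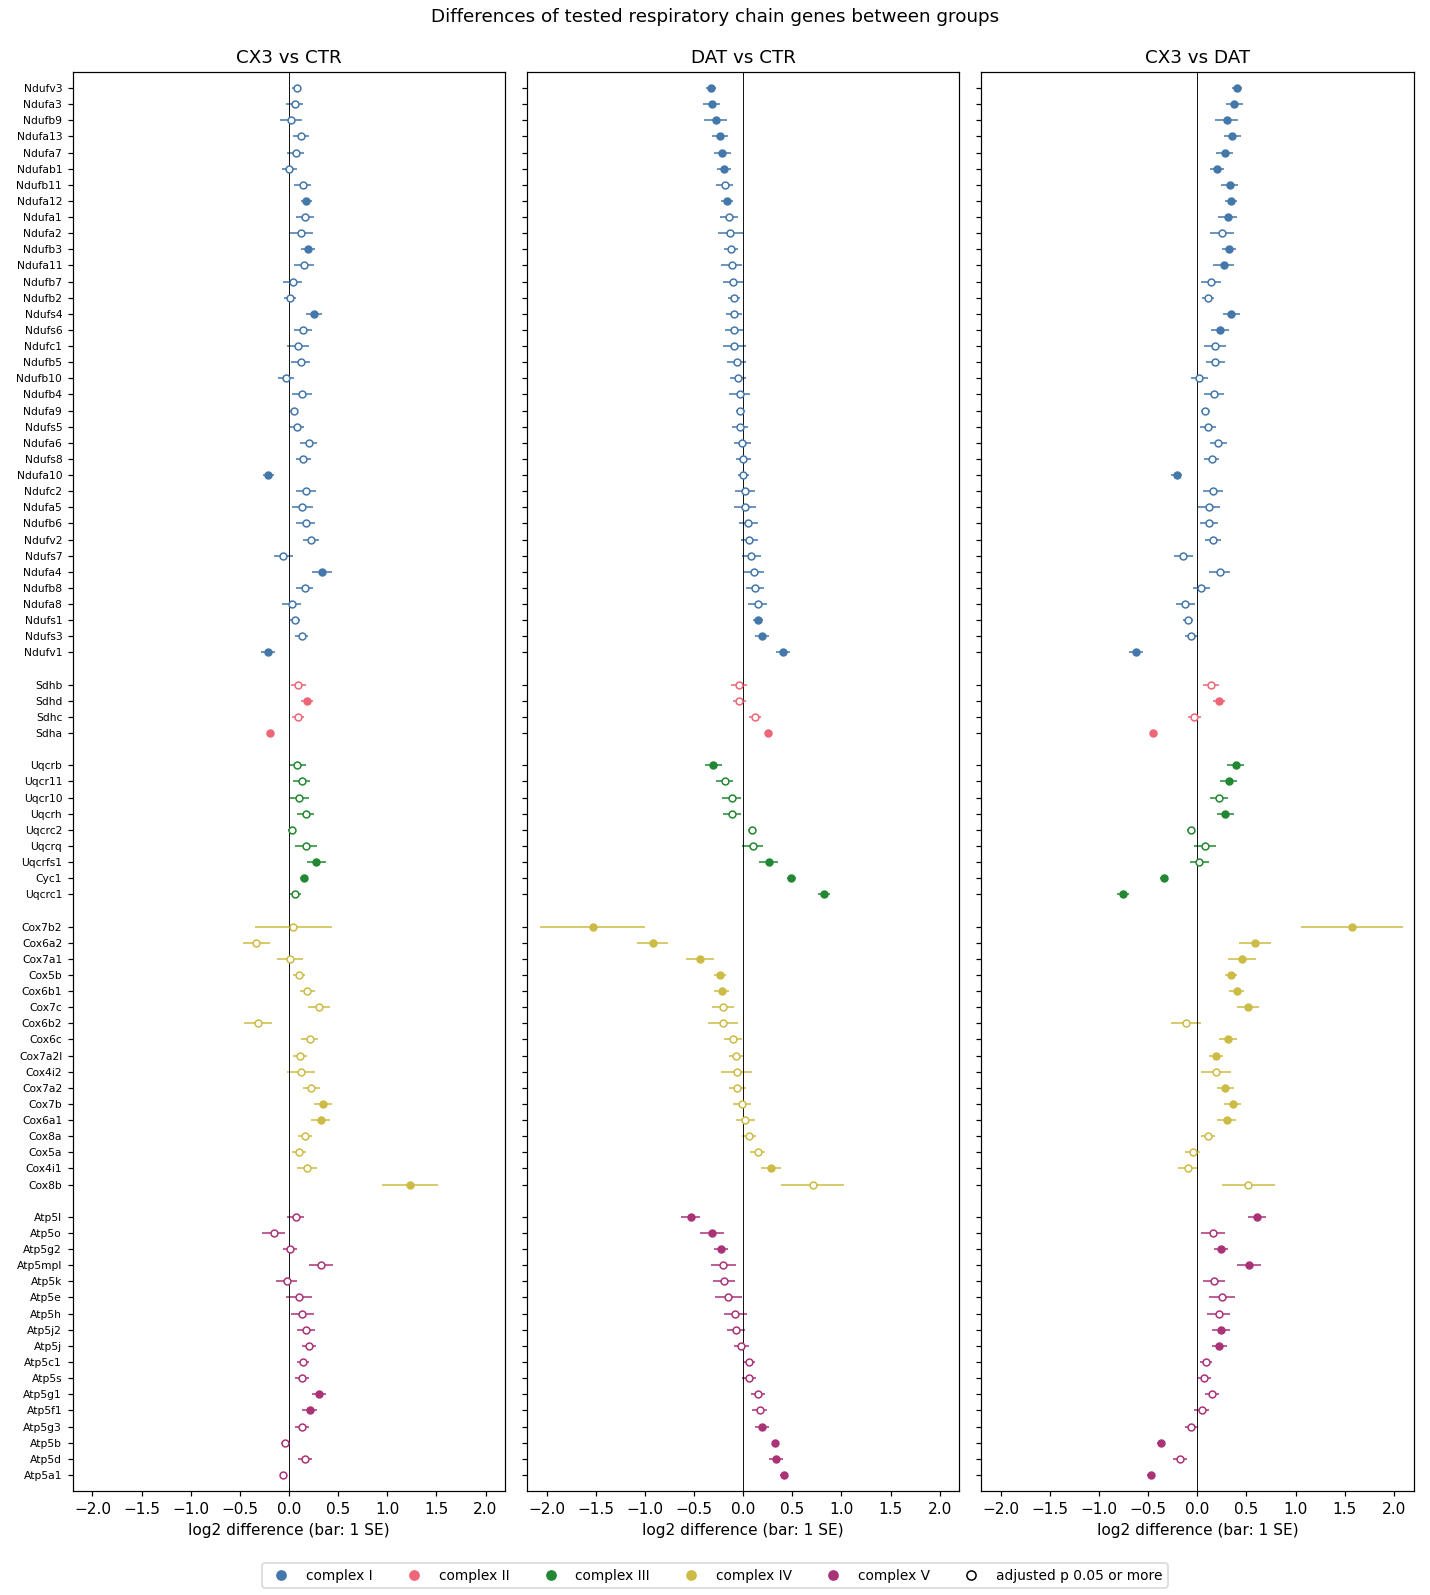
Log2 difference of 83 of the 84 tested members in CX3 against CTR, DAT against CTR and CX3 against DAT, ordered within each complex by the DAT difference. Bars are 1 SE of edgeR's fit, and filled points have an adjusted p under 0.05. In CX3 most points sit between 0 and 0.4, while in DAT they spread from below 0 to 0.82 for Uqcrc1.

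Complex I, NADH dehydrogenase, takes electrons from NADH through its flavin-bearing arm. Its nuclear core subunits carry the flavin and the iron-sulfur clusters. In DAT every core subunit called was higher and every accessory subunit called was lower, a split that was not present once transcript length was corrected for. Of 7 core subunits 4 were higher in DAT than CTR and 0 lower, with a median of 0.15, and of the other 30 subunits 0 were higher and 7 lower, with a median of -0.09. Over all of complex I, 10.8% were higher and 18.9% lower, below the 32.0% and 27.9% of all genes tested. In CX3 the core had 0 higher and 1 lower, and the others 4 and 1, where 14.0% of all genes were higher and 16.5% lower. At an unadjusted p under 0.05 or with DESeq2, the counts of 0 in DAT remained 0, and 1 core subunit was higher in CX3. With the trend over transcript length removed in each library, 7 core subunits were higher in DAT and 0 lower, and of the other 30 subunits 17 were higher and 2 lower. With that correction, 31.3% of all genes were higher in DAT and 30.5% lower. Without both CX3 replicate 1 and DAT replicate 2, 3 core subunits were higher in DAT and 3 lower, and the others had 0 and 27. Ndufv1 (chromosome 19 from 4007384 to 4012806), which binds NADH and the flavin, had 167, 166 and 172 CPM in CTR, 148, 141 and 145 in CX3 and 209.5, 257 and 202 in DAT. It was lower in every CX3 library and higher in every DAT library than in any CTR library. The log2 difference was -0.22 ± 0.071 (SE, adjusted p = 0.033) in CX3 and 0.40 ± 0.071 (0.000209) in DAT, and the CX3 call was lost without CX3 replicate 1 (-0.23).

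Several core genes moved less than Ndufv1. Ndufs1, which holds several of the clusters, differed in DAT by 0.15 ± 0.051 (adjusted p = 0.0179), from 159.9, 159 and 155 CPM to 165, 189.9 and 173. Ndufs3 was higher by 0.19 ± 0.07 (0.0326), a call that was lost without DAT replicate 2, where the difference was 0.08. Neither Ndufs7, Ndufs8 nor Ndufv2, all iron-sulfur subunits, passed the test in either comparison with CTR. Their differences were -0.06, 0.15 and 0.22 in CX3 and 0.08, 0.0002 and 0.06 in DAT.

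Among accessory subunits, Ndufv3 (chromosome 17 from 31520115 to 31531331), a small protein of the flavin arm, had 71.0, 74.8 and 70.8 CPM in CTR and 55.4, 60.5 and 56.9 in DAT. All DAT libraries lay below all CTR libraries, and the gene fell by 0.33 on the log2 scale (SE 0.052, adjusted p = 7.35e-05). Ndufa3 had 93.9, 93.5 and 94.9 CPM in CTR and 69.0, 86.8 and 70.9 in DAT, a fall of 0.32 (adjusted p = 0.00613). With the correction for transcript length Ndufa3 differed by 0.06 and was not called. Ndufs4, an accessory subunit whose loss is known to cause Leigh syndrome, had 62.3, 59.9 and 61.5 CPM in CTR, 77.6, 70.6 and 70.9 in CX3 and 53.0, 68.3 and 51.7 in DAT. It was higher in CX3 by 0.25 ± 0.083 (adjusted p = 0.0317), a call lost without CX3 replicate 1 (0.21), and its DAT libraries overlapped those of CTR. Ndufa4 had 189.7, 197 and 187 CPM in CTR and 258, 234 and 231 in CX3, 0.33 ± 0.10 higher (0.0244), a call lost without CX3 replicate 1 (0.28). Ndufa10 went the other way, with 154, 154 and 154 CPM in CTR and 140.2, 131 and 128.5 in CX3, -0.21 ± 0.058 (0.0139). Ndufa12 was the single member called higher in CX3 (0.18) and lower in DAT (-0.17) than CTR, a gene named here after its values were seen. Its CX3 call was lost without CX3 replicate 1 (0.14), and with the correction for transcript length it was called higher in DAT (0.20).

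Complex II, succinate dehydrogenase, has a catalytic pair (Sdha, Sdhb) and a membrane pair (Sdhc, Sdhd) and is the only complex encoded wholly in the nucleus. Sdha (chromosome 13 from 74322254 to 74350280), the flavoprotein that oxidizes succinate, had 519.6, 517 and 503 CPM in CTR, 449, 446 and 453 in CX3 and 621, 598 and 621 in DAT. The 3 groups did not overlap, with CX3 lowest and DAT highest. The log2 difference from CTR was -0.19 ± 0.036 (SE, adjusted p = 0.00116) in CX3 and 0.26 ± 0.036 (2.6e-05) in DAT, and both calls held without CX3 replicate 1 and without DAT replicate 2. Sdhd (chromosome 9 from 50596357 to 50603812), a membrane anchor, had 93.5, 94.0 and 95.5 CPM in CTR, 111, 108 and 102 in CX3 and 87.8, 103 and 85.3 in DAT. It was higher in CX3 by 0.18 ± 0.062 (0.0395), a call lost without CX3 replicate 1 (0.15), and its DAT libraries lay on both sides of CTR. Sdhb and Sdhc were above CTR in every CX3 library, by 0.10 and 0.09, without passing the test, and differed in DAT by -0.05 and 0.12.

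Complex III passes electrons from ubiquinol to cytochrome c. It held the largest rise of all members in DAT. Uqcrc1 (chromosome 9 from 108936633 to 108949623), a core protein on the matrix side, had 198, 200.1 and 192 CPM in CTR, 217, 203 and 194 in CX3 and 327, 383 and 329.7 in DAT. The DAT libraries lay far above both other groups, 0.82 ± 0.061 over CTR on the log2 scale (1.76-fold, adjusted p = 4.87e-08), while the CX3 libraries overlapped CTR. Cyc1 (chromosome 15 from 76343523 to 76346260), cytochrome c1, had 139.6, 141 and 138 CPM in CTR, 160.1, 151 and 153 in CX3 and 195, 202 and 191 in DAT. Its groups did not overlap. It was higher than CTR in CX3 (0.15 ± 0.042, adjusted p = 0.0143), a call lost without CX3 replicate 1 (0.13), and also in DAT (0.49 ± 0.042, 2.03e-07). Uqcrfs1, the Rieske iron-sulfur protein, was the other member higher in both, by 0.28 ± 0.096 (0.0408) in CX3 and 0.26 ± 0.096 (0.0324) in DAT, from 123, 118 and 117 CPM in CTR to 149.9, 146.5 and 138 in CX3 and 124, 175 and 130.5 in DAT. The DAT call rests on replicate 2, without which the difference was 0.09, and the CX3 call was lost without CX3 replicate 1 (0.25).

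Uqcrc2, the partner of Uqcrc1 in the core, differed far less from CTR than Uqcrc1 in DAT. It had 181, 181 and 186 CPM in CTR, 185, 183 and 191 in CX3 and 195, 193 and 196 in DAT, a DAT difference of 0.09 ± 0.039 that did not pass the test (adjusted p = 0.0555). All DAT libraries of Uqcrc2 lay above all CTR libraries. The same test called it higher in DAT without DAT replicate 2 (0.09, adjusted p = 0.0248) and with the correction for transcript length (0.12, 0.00807). Uqcrc2 shares 19.7% of its exon bases with Pdzd9 on the other strand. Uqcrb, a small ubiquinone-binding subunit, fell in DAT by 0.30 (adjusted p = 0.00818), from 51.8, 49.6 and 48.9 CPM to 36.4, 48.9 and 37.3. With the correction for transcript length Uqcrb differed by 0.07 and was not called. The remaining small subunits, Uqcrh, Uqcrq, Uqcr10 and Uqcr11, ran from 0.11 to 0.17 in CX3 and from -0.19 to 0.10 in DAT, and none passed the test against CTR.

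Complex IV, cytochrome c oxidase, has a catalytic core made in mitochondria and a shell of nuclear subunits. In CX3, 3 of 17 tested genes (17.6%, against 14.0% of all genes) were higher than CTR and 0 lower (2 at an unadjusted p under 0.05 and 0 with DESeq2), with a median of 0.17. Cox7b (X chromosome from 106015700 to 106022450) had 129.9, 131 and 128 CPM in CTR, 173, 159 and 162 in CX3 and 114, 156 and 116 in DAT, 0.34 ± 0.091 higher in CX3 (adjusted p = 0.011). Cox6a1 (chromosome 5 from 115345642 to 115348981) had 305, 306 and 290.4 CPM in CTR, 383, 371 and 372 in CX3 and 284, 375 and 258 in DAT, 0.32 ± 0.096 higher in CX3 (0.0213), a call lost without CX3 replicate 1 (0.31). For both genes DAT replicate 2 stood near the CX3 level and the other DAT libraries below CTR. Cox7c, with 151, 145 and 139.8 CPM in CTR and 181, 178 and 181 in CX3, was above CTR in every CX3 library by 0.31 without passing the test (0.0537).

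In DAT, 1 gene of complex IV was higher than CTR (5.88%, against 32.0% of all genes) and 5 lower (29.4%, against 27.9%). Cox5b, which binds zinc, had 243, 250.4 and 242.5 CPM in CTR and 208, 228 and 188 in DAT and fell by 0.24 (SE 0.064, adjusted p = 0.00532). With the correction for transcript length Cox5b differed by 0.002 and was not called. Cox4i1, the regulatory subunit that binds adenine nucleotides, had 298, 307 and 301 CPM in CTR and 314, 458.5 and 328 in DAT, 0.28 ± 0.10 higher (0.0296). That call rests on DAT replicate 2, without which the difference was 0.09, and Cox4i1 shares 9.94% of its exon bases with a gene on the other strand. Cox6b1, which bridges the dimer, fell by 0.22 (0.0248), although DAT replicate 2 at 208.6 CPM overlapped CTR. With the correction for transcript length Cox6b1 was called higher in DAT (0.115). Cox5a, at 0.10 in CX3 and 0.15 in DAT, passed neither test, and Cox6c, Cox7a2, Cox7a2l and Cox8a were called in neither comparison with CTR. With the correction for transcript length Cox5a was called higher in CX3 (0.166) and in DAT (0.475). A fit of the CX3 and CTR libraries alone called Cox6c, Cox7a2, Cox7a2l and Cox8a higher in CX3.

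Several subunits of complex IV and the c subunit of complex V exist as isoforms with different tissues of expression, and in nigral tissue the widely expressed forms of complex IV exceeded the others many times. Per transcript length, Cox6a1 exceeded Cox6a2, the heart and muscle form, by 65.9, 60.8 and 62.1 times in CTR, by 101, 93.3 and 101.8 in CX3 and by 154, 136.5 and 79.4 in DAT. All CX3 and DAT libraries lay above the CTR libraries. Over exonic length the ratio of group means was 51.1, 80.2 and 95.2. Cox6a2 itself had 5.52, 5.99 and 5.57 CPM in CTR, 4.52, 4.74 and 4.35 in CX3 and 2.19, 3.27 and 3.86 in DAT and fell in DAT by 0.92 (SE 0.16, adjusted p = 0.000189), and 10.3% of its exon bases are shared with Itgad. Cox7a1, another muscle form, fell in DAT by 0.44 (0.0178) from 4.07, 5.22 and 5.10 CPM to 3.21, 4.28 and 3.33. With the correction for transcript length Cox7a1 differed by 0.02 and was not called. Cox8b, the third muscle form, was low everywhere, with 13, 9 and 15 counts in CTR, 41, 30 and 30 in CX3 and 24, 14 and 12 in DAT, and was higher in CX3 by 1.23 ± 0.29 (0.00509). Skeletal muscle markers summed to 2.10 to 3.51 CPM in CTR, 2.36 to 3.26 in CX3 and 3.48 to 6.59 in DAT, with 1 of 5 lower in CX3 and 2 higher and 1 lower in DAT, and their part in these isoforms was not tested.

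Cox4i2, a form known from lung and from low oxygen, was at 2.2 to 2.53 CPM in CTR and at 1.8 to 2.69 elsewhere, and Cox4i1 exceeded it per length by 124 ± 10.1 times in CTR (SD, n = 3). Cox6b2, a testis form, had 5.85, 5.93 and 7.60 CPM in CTR and 5.66, 4.22 and 5.60 in CX3, below CTR in every library without passing the test (0.115). The testis form Cox7b2 was called lower in DAT but rests on 7, 17 and 9 counts in CTR and 2, 5 and 2 in DAT. Cox8c, with 0, 1 and 2 counts in CTR and 0 in the other libraries, did not pass the filter on low counts, nor did a second Atp5o entry with 0 counts in all 9 libraries.

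**Figure D3:**
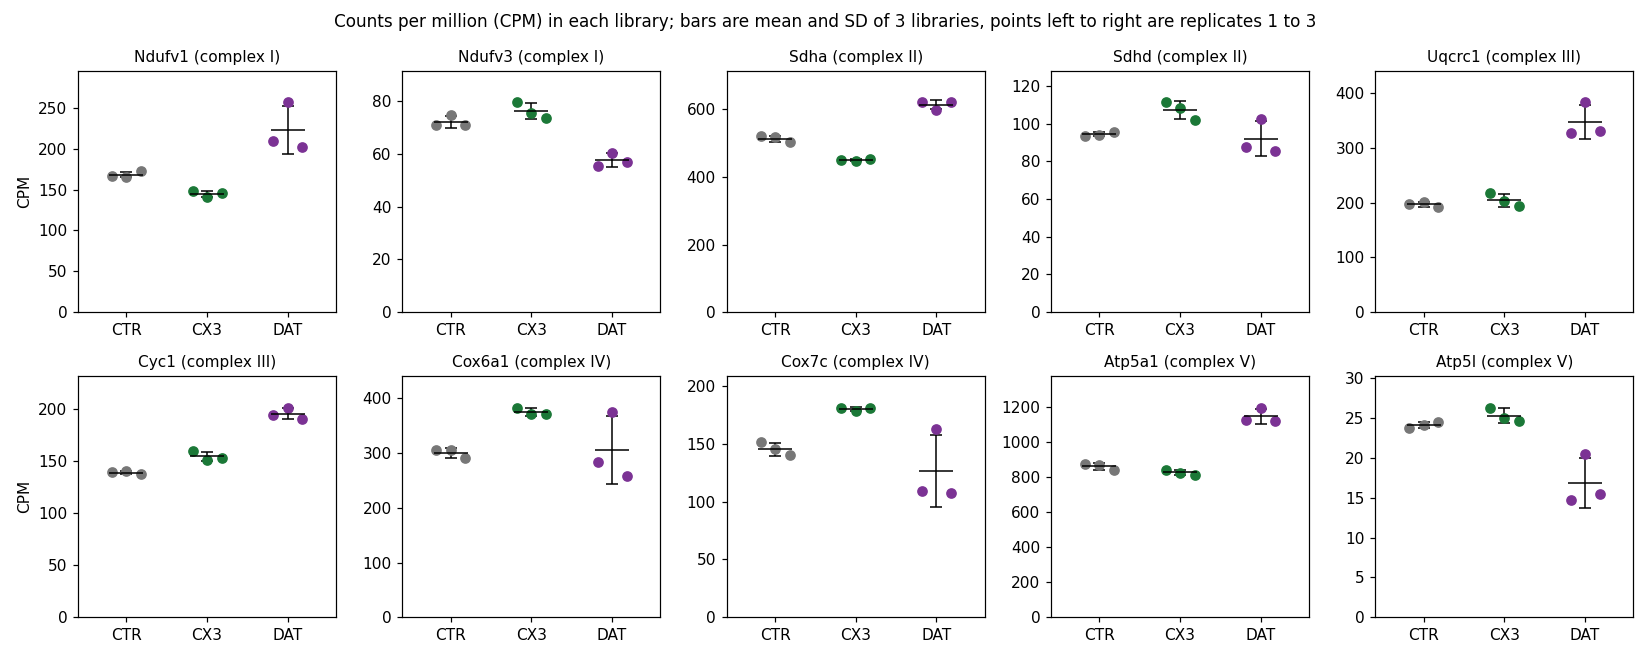
CPM of 10 named members in each library, with bars for the mean and SD of 3 libraries and a vertical axis that starts at 0. Sdha and Ndufv1 are lowest in CX3 and highest in DAT, Uqcrc1, Cyc1 and Atp5a1 are highest in DAT, and Ndufv3 and Atp5l are lowest in DAT.

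Complex V makes ATP in its F1 head, which is driven by a ring of c subunits in the membrane. In DAT, 4 genes of 17 were higher, 3 of them subunits of the F1 head and its stalk, and 3 were lower. These are 23.5% and 17.6%, below the 32.0% and 27.9% of all genes. Atp5a1 (chromosome 18 from 77773729 to 77782869), the α subunit, had 872, 869 and 839 CPM in CTR, 842, 824 and 813 in CX3 and 1123, 1196 and 1119 in DAT, 0.41 ± 0.038 higher in DAT (adjusted p = 4e-07). Atp5b had 1240, 1218 and 1188 CPM in CTR, 1199, 1166 and 1169 in CX3 and 1481, 1608 and 1491 in DAT, 0.33 ± 0.039 higher (4.87e-06). Both were higher in every DAT library than in any other and overlapped between CX3 and CTR. Atp5d, the δ subunit of the central stalk, was higher in DAT by 0.34 ± 0.071 (0.000983), while Atp5c1, the γ subunit of that stalk, differed by 0.06 without passing the test. With the correction for transcript length Atp5c1 was called higher in DAT (0.14). Atp5l (chromosome 9 from 44912557 to 44920742), the membrane subunit g, had 23.7, 24.0 and 24.5 CPM in CTR, 26.3, 24.9 and 24.6 in CX3 and 14.7, 20.4 and 15.4 in DAT. It fell in DAT by 0.54 (SE 0.095, adjusted p = 0.000216), with no DAT library as high as any other library.

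In CX3, 2 genes of complex V were higher (6 at an unadjusted p under 0.05 and 4 with DESeq2) and 0 lower, a count that was 0 by these as well. The genes called higher are 11.8% of those tested, below the 14.0% of all genes, and 16.5% of all genes were lower. Atp5g1, the first of 3 genes for the same mature c subunit, had 139, 142 and 127.5 CPM in CTR and 176, 159 and 169 in CX3, 0.31 ± 0.07 higher (adjusted p = 0.00461). Atp5f1, subunit b of the outer stalk, had 293.5, 289 and 287 CPM in CTR and 353.5, 328 and 324 in CX3, 0.21 ± 0.074 higher (0.0446), a call lost without CX3 replicate 1 (0.17). Atp5mpl, a small proteolipid of the membrane sector, was above CTR in every CX3 library by 0.32 without passing the test (0.0552). The c subunit genes shifted among themselves, with an Atp5g1 to Atp5g2 ratio per length of 0.416 to 0.468 in CTR, 0.532 to 0.563 in CX3 and 0.548 to 0.590 in DAT, so that neither group overlapped CTR (0.688, 0.845 and 0.896 from group means over exonic length). Atp5g3, the most abundant of them, was 3.09 ± 0.0853 times Atp5g2 in CTR, 3.37 ± 0.270 in CX3 and 4.12 ± 0.136 in DAT. In the test across genes Atp5g2 fell in DAT by 0.23 (0.0119) and Atp5g3 was higher by 0.19 (0.0264), the latter not without DAT replicate 2 (0.08). The fall of Atp5g2 was not present with the correction for transcript length. Atp5o, the stalk subunit OSCP, was called lower in DAT (-0.32), but 47.9% of its exon bases are shared with other entries, so its counts are incomplete.

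CX3 and DAT, which carry the same vector in different cell types, were also compared directly. These 2 groups differ in Cre line and tamoxifen as well as in the cell type. Complex IV was higher in CX3, with 11 of 17 genes called higher, 0 lower (also 0 at an unadjusted p under 0.05 and with DESeq2) and a median of 0.31 on the log2 scale. With the correction for transcript length it had 5 higher and 4 lower and a median of 0.06. Over all members 33 were higher in CX3 and 8 lower, where 27.6% of all genes were higher and 31.3% lower, and the median was 0.18. In 18 members the CX3 libraries lay above all DAT libraries, against 28.8% of all genes, and in 9 below, against 32.2%. Members lower in CX3 included Uqcrc1 (-0.76 ± 0.061, adjusted p = 1.01e-07), Ndufv1 (-0.62), Atp5a1 (-0.47), Sdha (-0.45), Atp5b (-0.37), Cyc1 (-0.34) and Ndufa10 (-0.21). Among those higher, Atp5l differed by 0.61 ± 0.093 (6.59e-05), Atp5mpl by 0.53 ± 0.12 (0.00202) and Cox7c by 0.52 ± 0.12 (0.00143), and none of their libraries overlapped between the groups. Without DAT replicate 2, 61 members were higher and 8 lower, against 30.3% and 30.8% of all genes, with a median of 0.33. Across both comparisons with CTR and this one, 32 of 84 members were called in none.

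Transcript length moved with the DAT result. Over all genes, the median DAT difference from CTR rose from -0.33 in the shortest of 5 equal groups of transcripts to -0.06, 0.02, 0.11 and 0.22 in the next groups, while in CX3 it stayed between -0.03 and 0.04. Respiratory chain transcripts are short, and 60 of the 84 tested members fall in the shortest group (up to 1144 bases), where the members' median in DAT was -0.09. Of 54 members under 1000 bases 3 were higher in DAT and 13 lower, and of 30 longer ones 10 were higher and 3 lower. Over all genes tested, of any length, 32.0% were higher in DAT and 27.9% lower. Across the 84 members the Spearman correlation of length with the difference was 0.53 in DAT and -0.17 in CX3, a description over genes that share the same libraries. When the trend over length was removed in each library, 53 members were higher in DAT than CTR and 4 lower, against 31.3% and 30.5% of all genes, with a median of 0.21. All 13 members that rose without this correction were still higher with it, and of the 16 that fell, 4 were still lower (Ndufv3, Ndufab1, Cox6a2 and Atp5l). With the same correction, 47 were higher in CX3 than CTR and 4 lower, against 18.1% and 19.2% of all genes, and 13 were higher in CX3 than DAT and 20 lower, against 30.8% and 30.5%, with a median of -0.03. So the rise of Uqcrc1, Cyc1, Atp5a1, Atp5b, Ndufv1 and Sdha in DAT was present with and without the correction, and the sign of the median over all members was not.

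**Figure D4:**
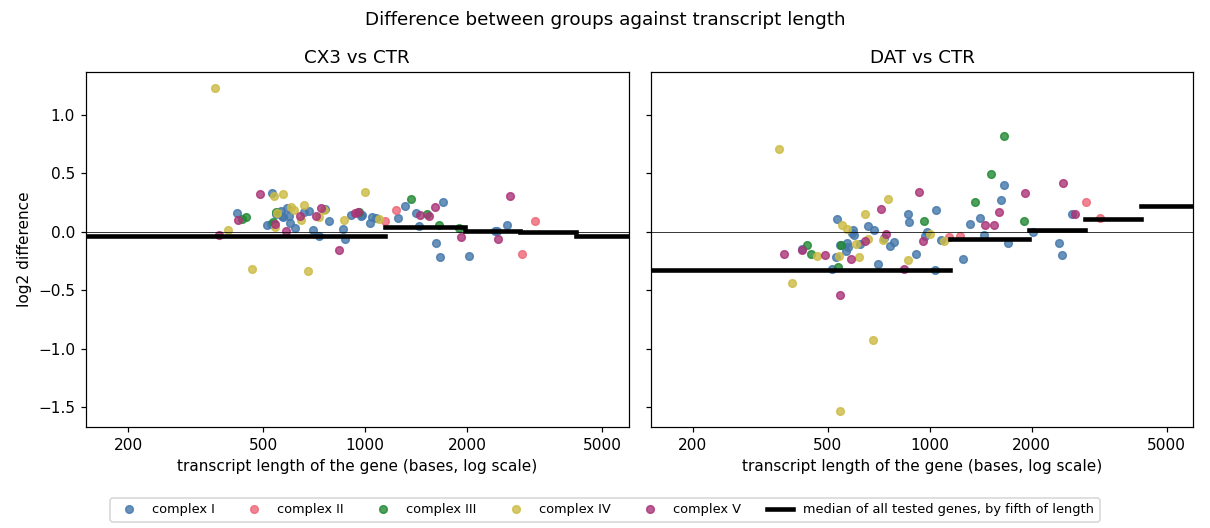
Log2 difference of each tested member against the transcript length of its gene (log axis), for CX3 against CTR and DAT against CTR, with the median of all tested genes in each of 5 equal groups of length as black bars. In DAT the bars climb from -0.33 to 0.22 and most members lie above the bar of their group, while in CX3 the bars stay near 0.

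Scaling bears on the directions as well. With library size in place of TMM the median of all genes moved to -0.15 in DAT and 0.04 in CX3 against CTR, so that changes are best read relative to it. The members' median was then -0.20 in DAT and 0.17 in CX3, which lies within 0.05 of the median of all genes in DAT and 0.13 above it in CX3, much as with TMM.

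The other genes of oxidative metabolism did not share a direction. The counts here and in the next paragraphs stand beside the shares of all genes tested. In DAT 32.0% of all genes were higher and 27.9% lower, and in CX3 14.0% and 16.5%. Of the 13 subunits encoded in mitochondrial DNA, 12 were lower in DAT than CTR and 0 higher (also 0 at an unadjusted p under 0.05 and with DESeq2), with a median of -0.47, and in CX3 5 were lower and 1 (mt-Nd1) higher, with a median of -0.16. mt-Co1, the catalytic subunit of complex IV, fell by 0.47 in DAT (adjusted p = 4.01e-09) and by 0.16 in CX3 (0.000606). The summed CPM of these genes was 4.36 to 4.74 times that of the nuclear members in CTR, 3.90 to 4.22 times in CX3 and 2.76 to 3.31 times in DAT, so that no group overlapped another. Of 43 assembly factors tested, 13 were higher in CX3 and 0 lower (3 at an unadjusted p under 0.05 and 0 with DESeq2), and 11 higher and 8 lower in DAT. Both DAT counts of assembly factors lay below the shares of all genes. Atpaf1, a chaperone that builds the F1 head, rose both in CX3 (0.44, adjusted p = 6.90e-06) and in DAT (0.60, 6.32e-08), and Cox17, which delivers copper to complex IV, fell by 1.45 in DAT (1.02e-07).

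Genes of the tricarboxylic acid (TCA) cycle and pyruvate dehydrogenase, which feed the chain, had 10 of 16 higher and 1 lower in DAT and 2 higher and 4 lower in CX3. Mdh2, which makes oxaloacetate, fell in CX3 by 0.34 (adjusted p = 0.000231) and rose in DAT by 0.36 (3.35e-05). Ogdh, of the oxoglutarate dehydrogenase complex, rose in DAT by 0.81 (6.95e-08). Glycolysis genes had 14 of 19 higher and 1 lower in DAT, and 1 higher and 13 lower in CX3. Of 12 regulators of mitochondrial biogenesis, 6 were higher and 4 lower in DAT, among them Esrrg (1.10, 1.46e-09) and Ppargc1a, the coactivator PGC-1α (0.54, 4.36e-06). Gabpa, which encodes a subunit of GABP, fell in both groups, by 0.33 in CX3 (0.000473) and 0.45 in DAT (1.16e-05). Nrf1 was -0.17 in CX3, which did not pass the test (0.0533), and fell by 0.16 in DAT (0.0499).

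Marker genes of cell types moved with the groups too. In bulk tissue, fewer cells of a type and less RNA per cell cannot be told apart. No marker listed here was at 0 in all 9 libraries, and 1 neuron marker, Eno2, is also in the glycolysis list. Neuron markers were higher in DAT in 9 of 10 genes and in CX3 in 5, where 2 were lower, with summed levels of 4936 to 4968 CPM in CTR, 5078 to 5202 in CX3 and 7473 to 7615 in DAT. DA neuron markers were higher in CX3 in 6 of 8 genes, with 2 higher and 4 lower in DAT. They summed to 862 to 871 CPM in CTR, 1046 to 1066 in CX3 and 676 to 690.0 in DAT, so every library held DA neuron transcripts. Microglia markers were lower in 8 of 9 genes in CX3 and in 9 of 9 in DAT, at 1888 to 1913, 1334 to 1381 and 836 to 926.5 CPM, and astrocyte markers lower in 6 of 6 in CX3 and 3 of 6 in DAT. T cell markers, lower in 4 of 8 genes in CX3 and 8 of 8 in DAT, summed to 64.1 to 66.1 CPM in CTR, 52.4 to 56.7 in CX3 and 15.7 to 18.2 in DAT. B lineage markers, lower in 7 of 7 genes in both, summed to 1694 to 1744, 309 to 334.5 and 76.7 to 90.0 CPM, highest in the libraries labelled CTR. For CX3 mice the study reports, by staining, loss of TH-positive neurons and more IBA1 signal of microglia. It also reports T cell genes as upregulated in the bulk RNA of their nigra. The markers of DA neurons, microglia and T cells here went the other way between CTR and CX3. The labels were used as given. Endothelial markers were higher in DAT in 5 of 5 genes and in CX3 in 3 of 5, and markers of pericytes and smooth muscle higher in 5 of 7 in DAT, where 1 was lower, and in 4 of 7 in CX3. Choroid plexus markers, of a tissue outside the substantia nigra, were higher in 5 of 6 genes in both and summed to 46.5 to 47.5 CPM in CTR, 1475 to 1584 in CX3 and 874 to 1044 in DAT, and pituitary markers, lower in 3 of 4 genes in CX3 and 2 of 4 in DAT, to 61.5 to 64.1, 6.12 to 6.47 and 18.5 to 23.6. Oligodendrocyte markers, with 2 of 7 higher and 3 lower in each group, summed to 20600 to 20690 CPM in CTR, 21730 to 22120 in CX3 and 14980 to 15950 in DAT, and cerebellar granule cell markers to 130 to 132, 139 to 141.5 and 188 to 195, with 4 of 5 higher in DAT and 2 higher and 1 lower in CX3. Cytosolic ribosomal protein genes, also short, were lower in DAT in 68 of 78 and in CX3 in 6 of 78. The part of these cell types in the respiratory chain results was not tested, and makeup of the tissue and group cannot be told apart with these libraries.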

How the data were processed

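RNA of dissected substantia nigra from 9 samples was sequenced on an Illumina HiSeq instrument from stranded mRNA libraries, with reads of 76 bases and RNA of integrity number 9 or higher. The authors deposited raw read counts per gene for each library. Per the labels and the study's methods, reads were trimmed with Trimmomatic, aligned with STAR to the mouse genome (mm10) and counted with featureCounts, whose versions are not given in the sources used here. Each file is laid out as STAR writes it when it counts genes itself, with a column for both strands and a column for each strand. The column for both strands was used, since the strand columns each held close to the same share of the counts (49.8 to 49.9% on the reverse strand). Reads from a gene and from a gene overlapping it on the other strand can then not be told apart, and reads that match several places, such as those shared with processed pseudogenes, are not counted in this layout. Reads without a gene (4.15 to 7.73%) and reads in several genes (4.34 to 5.67%) were left out of library sizes. All 55450 gene identifiers were found in GENCODE M21 (GRCm38), from which symbols, coordinates and exonic lengths were taken.

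Counts of all 9 libraries were fitted together with group as the only term by edgeR's quasi-likelihood test (edgeR 4.0.16, R 4.3.3) after filterByExpr and TMM scaling, and p-values were adjusted by Benjamini and Hochberg over the 20892 genes tested, 84 of them members. A gene was called at an adjusted p under 0.05. The genes given by name were, in each comparison with CTR, the 3 members of each complex with the largest change among those called whose groups did not overlap, the 10 such members between CX3 and DAT, the catalytic or core subunits and the isoform sets whatever their values, and the members removed by the filter. Another 9 members were named after their values were seen. Single genes that these choices would name are in part not reported here. The members and the lists of other genes were chosen with earlier results of these data known. TPM used exonic length, and ratios between isoforms the median length of CCDS transcripts. The script of the test was tested on simulated data. Counting floors of 3 counts cover counting error only. Alternatives were library size or DESeq2's size factors as scaling, DESeq2 (1.42.0), no filter, counts of a single strand, a block for replicate number, a correction for gene length, a test against a 1.2-fold change, fits of the compared groups alone and fits without single libraries. Promoter sequences are RefSeq's. Figures were drawn with matplotlib 3.10.9.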

Additional observations from a re-analysis of the deposited data

Results flagged for a closer look

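The differences of CX3 and of DAT from the same CTR libraries were unequal in the direct test of CX3 against DAT for 33 members that were higher in CX3 and 8 that were lower. These are 39.3% and 9.52% of the members tested, against 27.6% and 31.3% of all genes. Of these members given by name, 22 were higher in CX3. On the log2 scale Atp5l differed by 0.605, Cox6a2 by 0.591, Atp5mpl by 0.525, Cox7c by 0.516, Cox7a1 by 0.45, Ndufv3 by 0.406 and Cox6b1 by 0.403. Smaller differences were those of Uqcrb (0.389), Ndufa3 (0.377), Cox7b (0.358), Ndufs4 (0.347), Ndufa12 (0.343), Cox5b (0.341), Uqcr11 (0.318), Cox6c (0.312), Cox6a1 (0.299), Cox7a2 (0.286), Atp5g2 (0.24), Sdhd (0.222), Ndufab1 (0.2) and Cox7a2l (0.188). Cox7b2, at 1.57, was called too but rests on 2, 5 and 2 counts in DAT. Lower in CX3, among others, were Uqcrc1 (-0.761), Ndufv1 (-0.62), Atp5a1 (-0.472), Sdha (-0.448), Atp5b (-0.374), Cyc1 (-0.34) and Ndufa10 (-0.211). Groups of 3 libraries were not tested for single libraries that lie apart.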

How the results depend on the processing

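Of 3125 recomputed values of single genes, for 54 members given by name, 2368 kept their sign and their side of the threshold, 331 passed it newly, 231 no longer passed it, 42 changed sign with a call in at least 1 of the fits and 153 changed sign with a call in neither. The sign changes named here are those with a call. DESeq2's test, its size factors and reverse strand counts left the counts over all members and their medians within 1.5 times or the spread between libraries. The cause of the changes listed here was not tested. Shares of all genes called move with the setting too, and are given above for some settings only. Counts of members below that lack such a share cannot be set against all genes.

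With library size in place of TMM, 23 members were higher in CX3 than CTR, 7 higher and 37 lower in DAT than CTR (median -0.198) and 66 higher in CX3 than DAT (0.376), and Sdhc (0.165) and Uqcrc2 (0.131) changed sign between CX3 and DAT and Ndufa10 (-0.145) between DAT and CTR. With no filter 40 were higher in CX3 than CTR and 51 higher in CX3 than DAT. Fits of the compared groups alone gave 45 higher and 5 lower in CX3 than CTR and 8 higher in DAT than CTR, as did forward strand counts (8). Against a change of 1.2-fold, 1 was higher and 0 lower in CX3 than CTR, 5 and 3 in DAT than CTR, and 7 higher in CX3 than DAT. That 0 was also 0 at an unadjusted p under 0.05, and the test against no change gave 3.

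Removing the trend over exonic length gave 36 higher and 5 lower in CX3 than CTR, 38 and 6 in DAT than CTR (median 0.107) and 17 lower in CX3 than DAT. DAT differences then changed sign in Cox6b1 (0.118), Sdhd (0.149), Cox7a2 (0.201), Cox7b (0.171), Uqcr11 (0.172) and Uqcr10 (0.264). The replicate block with that correction gave 35 higher in CX3 than CTR, 39 and 8 in DAT than CTR (0.107) and 18 lower in CX3 than DAT, with the same genes at 0.117, 0.149, 0.2, 0.169, 0.173 and 0.263. The block alone gave 11 and 3, 13 and 16, and 32 and 8 members, with medians of 0.127, -0.0551 and 0.188. In these comparisons it called 5805, 12144 and 11955 of all genes in either direction, against 6367, 12520 and 12311 without it. The shared replicate numbers do not pair the libraries, whose deviations correlated by -0.16 to 0.0398 at the same number.

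The trend over transcript length, an alternative chosen after seeing the data, gave 47 higher in CX3 than CTR, 53 and 4 in DAT than CTR (0.205), and 13 and 20 in CX3 than DAT (-0.0268). DAT differences changed sign in Cox5b (0.00205), Ndufa3 (0.0608), Cox7a1 (0.0179), Cox6b1 (0.115), Cox7a2 (0.254), Uqcrb (0.0686), Atp5g2 (0.122), Cox7b (0.167), Uqcrh (0.248), Uqcr11 (0.226), Uqcr10 (0.302), Ndufa12 (0.196) and Cox6c (0.234), and CX3 against DAT in Atp5g2 (-0.0252) and Cox8a (-0.151).

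Leaving out libraries moved the median between 0.0788 and 0.153 for CX3 against CTR, -0.199 and 0.00878 for DAT against CTR, and 0.127 and 0.326 for CX3 against DAT. Members higher ranged from 3 to 47, 8 to 15 and 24 to 61, and lower from 1 to 11, 7 to 59 and 7 to 9. Each of the 3 CTR and 3 CX3 libraries took the higher count in CX3 below 12, to 3 to 7. Named differences that changed sign in these fits ranged in DAT against CTR from -0.166 to 0.112 in Cox6a1, -0.0981 to 0.179 in Ndufa4, -0.111 to 0.15 in Ndufs7, -0.0897 to 0.115 in Ndufv2, -0.123 to 0.0387 in Ndufs8, -0.0902 to 0.0225 in Ndufa10, -0.123 to 0.189 in Uqcrq and -0.0762 to 0.0965 in Cox8a, and in CX3 against DAT from -0.179 to 0.106 in Cox4i1. Their signs changed where DAT replicate 2 was left out, alone or with CX3 replicate 1, the latter chosen after seeing the data.

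Levels per length, given in TPM summed over complexes I to V, were 7818, 991.6, 2531, 6838 and 4920 in CTR and 8705, 1031, 2879, 8202 and 5335 in CX3 with library size alone, where complex II was 964.1 in DAT. With transcript length, chosen after seeing the data, they were 8414, 899.3, 2653, 6944 and 7070 in CTR and 9096, 899.7, 2913, 8041 and 7511 in CX3, and in DAT 966.5 for complex II and 7664 for complex V. Depth limits the isoforms with few counts, Cox7b2, Cox8b and Cox8c.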
